A study of Mus musculus with 6 samples.

Results

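The 10 genes described here encode the catalytically active MAP kinase phosphatases of the mouse, Dusp1, Dusp2, Dusp4, Dusp5, Dusp6, Dusp7, Dusp8, Dusp9, Dusp10 and Dusp16, and all 10 had reads among the 29616 genes of the table. The family was chosen by a measured value, the rise of Dusp2 reads in the dexamethasone libraries. The change of Dusp2 is therefore described without a test, and the other 9 members came with it by name. RNA was sequenced from bone cells of C57BL/6 mice in 3 control libraries and 3 dexamethasone libraries. Per the study's methods, dexamethasone, a synthetic glucocorticoid, was given daily at 0.08 µg/g for 4 weeks from 8 weeks of age, and the cells came from bones cleared of marrow and were gated as Osteocalcin-positive. Saline is named as the control treatment where the study images bones of this model, and is not named again for the sequenced libraries. Whether a library held 1 mouse or a pool is not given in the sources used here, so p-values measure the spread between these libraries.

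MAP kinases relay signals from growth factors, hormones and stress through ERK, JNK and p38, and each is switched on by phosphates on a threonine and a neighbouring tyrosine. The MAP kinase phosphatases remove both phosphates. They form 3 groups by place and preference. Dusp1, Dusp2, Dusp4 and Dusp5 are nuclear and inducible, Dusp6, Dusp7 and Dusp9 are cytoplasmic and prefer ERK, and Dusp8, Dusp10 and Dusp16 prefer JNK and p38. Several are made in response to the pathway they switch off, and Dusp1 is a textbook target of glucocorticoids. In osteoblasts, ERK and p38 signalling act on Runx2 and on matrix production.

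The members did not all move the same way. The nuclear members Dusp1, Dusp4 and Dusp5 and the cytoplasmic ERK phosphatase Dusp6 rose 3.13-fold to 20.4-fold in the dexamethasone libraries. Dusp8, which prefers JNK and p38, fell to 0.145 of its control level, while Dusp10 and Dusp16 were lower and Dusp7 higher by less than the threshold for a call. Dusp2 went from 3 reads or fewer in every control library to 736 reads or more in every dexamethasone library, and Dusp9 was near the detection limit in both groups. Counted over the 8 tested members other than Dusp2, 4 were called higher and 1 lower, where a call needs both a limma adjusted p under 0.05 and a difference of 1 or more on the log2 scale. Of all 17442 genes tested, 22.3% were called, 11.7% higher and 10.6% lower. At an adjusted p under 0.05 with any fold change, 5 of the 8 members were higher and 3 lower, against 72.5% of all genes in either direction. In all 8, the 3 control values did not overlap the 3 dexamethasone values, as for 74.7% of all genes. These counts come from the contrast in which Dusp2 was noticed and are a description. The median log2 fold change was 1.19 over the 8 members and 0.00071 over all genes tested.

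**Figure D1:**
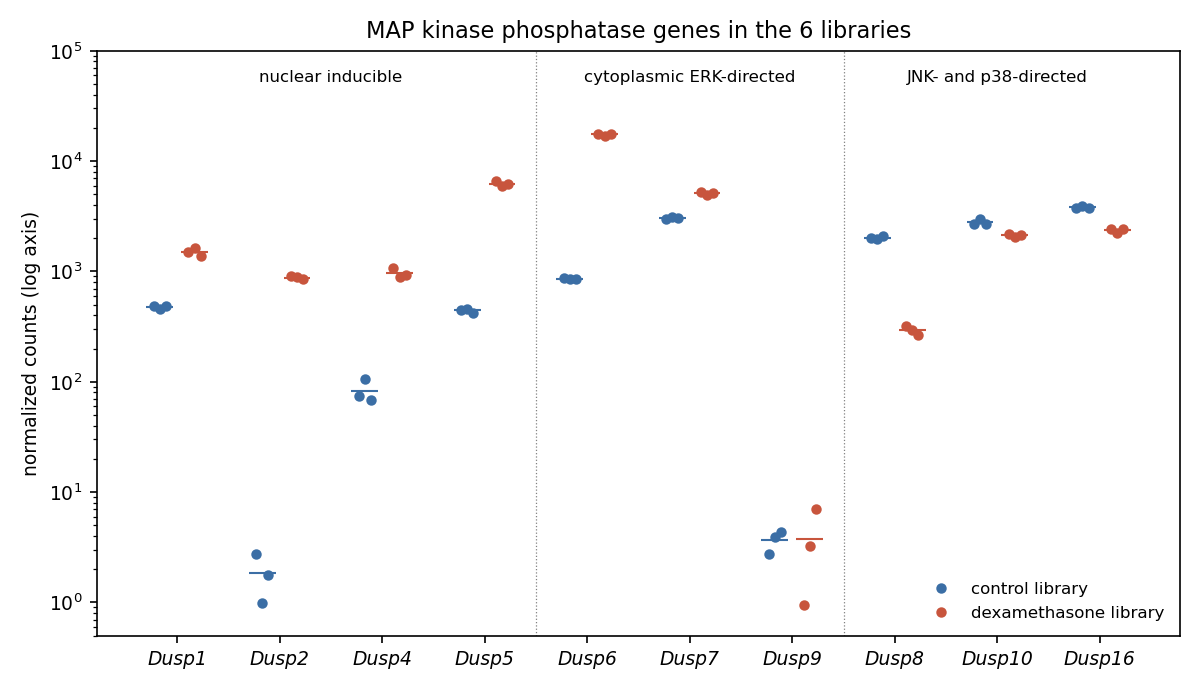
Normalized counts (log axis) of the 10 members in each of the 6 libraries, with points for libraries and short lines for group means (n = 3 each). The dexamethasone points of Dusp1, Dusp2, Dusp4, Dusp5, Dusp6 and Dusp7 lie above all control points, those of Dusp8, Dusp10 and Dusp16 lie below, and those of Dusp9 overlap.

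The libraries held 72596611 to 89910728 reads, so that the members other than Dusp2 and Dusp9 rest on 77 reads or more per library. The values are normalized counts, that is reads divided by 1 size factor per library. Where 3 values are given for a group they stand in the order of replicates 1, 2 and 3. An observed 0 is compatible with up to 3 reads, which covers counting error only. All 8 osteoblast markers (Runx2, Sp7, Col1a1, Col1a2, Alpl, Ibsp, Bglap and Bglap2) were detected and all 8 were called lower with dexamethasone, their summed level falling from between 1976430 and 2103560 to between 751472 and 845231 normalized counts. For Osteocalcin, the marker of the gate, Bglap had a mean of 107 normalized counts in the controls and 12.2 with dexamethasone. Bglap2 had 324 and 31.3. In these bulk libraries fewer cells of a type and less RNA per cell cannot be told apart. Among the markers of other cells, the adipocyte sum was 10.5 to 11.9 normalized counts in the controls and 1427 to 1542 with dexamethasone, the latter nearly all Fabp4. Of the other adipocyte markers, Cfd had a mean of 2.49 in the controls and 16.9 with dexamethasone, without overlap, Adipoq 4.03 and 1.39, and Plin1 2.41 and 1.02, and Lep was at 3 reads or fewer in every library. The smooth muscle and pericyte sum was 140822 to 148428 and 12038 to 13039, nearly all of it Acta2, which was called lower. Rgs5 was higher, with means of 12.3 and 21.1 and no overlap. Tagln had means of 55.9 and 59.5, Myh11 44.2 and 24.8, and Cnn1 6.70 and 2.23. The chondrocyte sum was 39314 to 41285 and 26252 to 29470, with Sox9 and Col2a1 called higher, Col11a1 called lower and Acan, a defining cartilage gene, at 6 reads or fewer. The osteoclast sum was 12880 to 13498 and 8169 to 8610, nearly all of it Ctsk. Mmp9 was lower, with means of 20.6 and 9.05, and reached the filter mean of 10 only through its control values. Acp5 and Ocstamp went the other way, with means of 0 and 18.3 and of 2.25 and 14.0, at 26 reads or fewer. The endothelial sum was 363 to 398 and 433 to 475, mostly Kdr with means of 348 and 414. Pecam1 had a mean of 15.7 and 26.3, Tek 12.6 and 8.11, and Cdh5 and Tie1 were at 3 reads or fewer. The erythroid sum was 30.3 to 37.6 and 21.0 to 49.1, and the skeletal muscle sum 63.3 to 79.3 and 55.6 to 73.5. Their part in the changes of the family was not tested. The glucocorticoid targets Fkbp5, Sgk1, Tsc22d3 and Per1 were all called higher, by 21.3-fold, 19.1-fold, 3.14-fold and 2.80-fold, and the receptor gene Nr3c1 was at 0.527 of its control level.

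The sequences before the start sites of the members called higher, of Dusp2 and of Dusp8, the member called lower, are shown because these genes changed most. They are the 250 bases before the RefSeq start site, read 5′ to 3′ on the strand of the gene, in build GRCm38.p6. The authors' build was GRCm39, so these positions are not those of the authors' files. The windows lie at chr17:26508473-26508722 on the minus strand for Dusp1, chr2:127335909-127336158 on the plus strand for Dusp2, chr19:53528895-53529144 on the plus strand for Dusp5, chr10:99262981-99263230 on the plus strand for Dusp6 and chr7:142095285-142095534 on the minus strand for Dusp8. Dusp7, Dusp10 and Dusp16 also had an entry. Dusp4 and Dusp9 are named only. Capitals mark the motifs found.
Dusp1: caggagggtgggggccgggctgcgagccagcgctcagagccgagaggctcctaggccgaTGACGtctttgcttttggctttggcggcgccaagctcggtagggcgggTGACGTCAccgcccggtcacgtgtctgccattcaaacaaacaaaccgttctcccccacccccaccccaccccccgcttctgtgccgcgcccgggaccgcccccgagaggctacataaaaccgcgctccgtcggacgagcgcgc
Dusp2: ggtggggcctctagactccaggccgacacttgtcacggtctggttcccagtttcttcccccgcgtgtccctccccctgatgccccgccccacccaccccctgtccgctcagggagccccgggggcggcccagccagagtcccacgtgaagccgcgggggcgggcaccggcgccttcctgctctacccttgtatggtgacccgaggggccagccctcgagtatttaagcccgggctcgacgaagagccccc
Dusp5: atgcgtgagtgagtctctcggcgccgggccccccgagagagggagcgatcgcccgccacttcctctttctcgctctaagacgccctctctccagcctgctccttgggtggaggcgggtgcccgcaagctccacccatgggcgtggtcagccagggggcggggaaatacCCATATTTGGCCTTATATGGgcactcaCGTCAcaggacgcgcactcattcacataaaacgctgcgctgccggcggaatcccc
Dusp6: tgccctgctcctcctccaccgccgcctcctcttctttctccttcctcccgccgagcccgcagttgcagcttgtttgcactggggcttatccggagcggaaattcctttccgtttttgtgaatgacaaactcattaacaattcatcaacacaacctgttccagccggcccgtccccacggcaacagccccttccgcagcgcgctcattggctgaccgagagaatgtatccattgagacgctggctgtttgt
Dusp8: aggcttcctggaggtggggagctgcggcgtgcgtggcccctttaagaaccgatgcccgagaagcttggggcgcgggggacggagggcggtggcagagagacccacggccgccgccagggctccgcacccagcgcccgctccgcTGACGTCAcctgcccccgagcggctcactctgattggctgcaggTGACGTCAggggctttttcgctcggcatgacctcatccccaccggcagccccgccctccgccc

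Motifs were searched on both strands and were chosen with the members' values known. The cAMP response element TGACGTCA was found in the windows of Dusp1 and Dusp8, 2 of the 8 members with an entry, and in 1.62% of 27025 promoters of that length. Dusp1 had 1 copy starting 143 bases before the start site, and Dusp8 had 2 copies starting 107 and 63 bases before it. For Dusp8 and Dusp16 the 20 bases that follow the RefSeq start site were found in no GENCODE M21 transcript of the gene, so their positions rest on RefSeq alone. The shorter TGACG, which also counts inside the full element, was found in Dusp1, Dusp5, Dusp8 and Dusp16, against 17.9% of all promoters. The CArG box, the site of serum response factor, was found in Dusp5 alone, in 2 copies that start 82 and 72 bases before the start site and touch each other, against 1.40% of all promoters. The other letters searched were the glucocorticoid half-site AGAACA (16.2% of all promoters), the AP-1 site TGANTCA (6.87%), the ETS site CCGGAAG (7.05%) and the TATA box TATAAA (12.97%), with 0 of the 8 windows holding any of them. A match or its absence in such a short window is a description only. The windows of the 8 members held 56.4% (Dusp6) to 77.2% (Dusp7) of G and C bases, against a median of 52% over all promoters.

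Dusp2, once named PAC-1 for its induction in activated lymphocytes, is a nuclear phosphatase that acts on ERK and p38. It had 3, 1 and 2 reads in the controls against 947, 810 and 736 reads with dexamethasone. No control library exceeded 3 reads, but each held at least 1, so the controls were low and not shown to lack Dusp2. The dexamethasone values lay close together. Its level with dexamethasone was 881 ± 23.8 normalized counts (SD, n = 3). That mean is 300 times the 2.94 normalized counts that 3 reads amount to in control replicate 2. The ratio is no lower bound, since reads were observed in the controls and their true level may be higher. Markers of lymphocytes, the cells for which Dusp2 is best known, had few reads. Cd3d, Cd8a, Cd79b and Il7r had 3 reads or fewer in every library. The highest was Lck, with means of 15.1 in the controls and 5.45 with dexamethasone and at most 18 reads. Cd79a had means of 6.44 and 3.35. The summed level of the lymphocyte list was 32.1 to 39.1 normalized counts in the controls and 18.5 to 20.9 with dexamethasone, and Ptprc, the pan-leukocyte antigen, had a mean of 2.48 and 4.71. The neutrophil sum was 949 to 999 and 1060 to 1221, the macrophage sum 1215 to 1234 and 911 to 1081, with Cd68 and Mrc1 called higher and Lyz2 lower, and the part of these cells in the Dusp2 level was not tested.

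The genes whose level over the 6 libraries was nearest to that of Dusp2, by Euclidean distance on log2(normalized count + 1), were Acsbg1, Fabp4, Hif3a, Serpina3m and Orm1. Their distances were 1.14, 1.38, 1.58, 1.94 and 2.77. In no control library did any of the 5 exceed 4 reads. Acsbg1, an acyl-CoA synthetase, had 4, 3 and 3 reads in the controls against 986, 879 and 858 with dexamethasone. Fabp4, a fatty acid carrier, reached 1448 normalized counts with dexamethasone, and Hif3a, a subunit of the hypoxia-inducible factor family, reached 566. Serpina3m, a serine protease inhibitor, reached 640, and Orm1, an acute-phase plasma protein, reached 320.3.

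Dusp1, the founding member, which acts on p38, JNK and ERK, had 488, 461 and 490 normalized counts in the controls against 1505, 1614 and 1393 with dexamethasone. Every dexamethasone library lay above every control library. Its log2 fold change was 1.64 (standard error 0.062, limma adjusted p = 1.11e-17), a ratio of means of 3.13. It was the smallest of the 4 rises. On the opposite strand, Ergic1 overlaps 0.332% of the exon bases of Dusp1 and itself went from 13348 to 24827 normalized counts.

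Dusp4, a nuclear phosphatase of ERK and JNK, had 74.4, 106 and 67.7 normalized counts in the controls against 1066, 894 and 934 with dexamethasone. It was the most variable tested member among the controls after Dusp2, with a coefficient of variation of 24.6%, and the groups were nonetheless far apart. Its log2 fold change was 3.55 (standard error 0.123, limma adjusted p = 1.8e-18).

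Dusp5, a nuclear phosphatase specific for ERK, had 449, 461 and 424 normalized counts in the controls against 6564, 5956 and 6152 with dexamethasone. The lowest dexamethasone value was far above the highest control value. Its log2 fold change was 3.80 (standard error 0.0499, limma adjusted p = 7.64e-27). In the GENCODE M21 annotation an opposite-strand gene, AC137853.2, overlaps 22.1% of the exon bases of Dusp5, and reads there could fall to either gene if strand was not used. That gene had a mean of 3.06 normalized counts in the controls and 8.62 with dexamethasone. For the other 9 members, 100% of the 75-base positions of their transcripts occur in no other annotated gene.

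Dusp6, the cytoplasmic phosphatase that binds and switches off ERK, gave the largest tested change of the family. The controls had 872, 849 and 848 normalized counts against 17730, 17042 and 17542 with dexamethasone. The replicates differed little, with coefficients of variation of 1.58% and 2.04%, and the ratio of the means was 20.4. Its log2 fold change was 4.35 (standard error 0.0376, limma adjusted p = 3.59e-30), and in the order of all 17442 tested genes from the largest increase down it stood at place 116, Dusp5 at 173, Dusp4 at 207 and Dusp1 at 1067.

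Dusp7, the other cytoplasmic ERK phosphatase with many reads, had 2956, 3134 and 3039 normalized counts in the controls against 5202, 4955 and 5150 with dexamethasone. Its groups did not overlap either, but the step was smaller. The log2 fold change was 0.75 (95% confidence interval 0.67 to 0.83, limma adjusted p = 7.8e-15), under the threshold of 1. Dusp9, the third of this group, which is best known from placenta and is X-linked, had 3, 4 and 5 reads in the controls against 1, 3 and 6 with dexamethasone. With a mean under 10 normalized counts it was not tested, and no difference was detectable at this depth.

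Dusp8, a phosphatase of JNK and p38, moved the other way. It had 1990, 1981 and 2091 normalized counts in the controls against 321, 292 and 266 with dexamethasone. The groups were wide apart, and the ratio of the means was 0.145. The log2 fold change was -2.79 (standard error 0.0668, limma adjusted p = 8.04e-22), the 183rd place from the largest decrease up among all tested genes.

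Dusp16, which shuttles between cytoplasm and nucleus and prefers JNK, had 3763, 3917 and 3780 normalized counts in the controls against 2432, 2229 and 2435 with dexamethasone. Its log2 fold change was -0.69 (95% confidence interval -0.78 to -0.60, limma adjusted p = 2.51e-13). Dusp10, a phosphatase of p38 and JNK, had 2678, 3000 and 2718 normalized counts in the controls against 2197, 2053 and 2119 with dexamethasone. For both genes all dexamethasone values lay below all control values, by less than the threshold for a call. The log2 fold change of Dusp10 was -0.40 (95% confidence interval -0.49 to -0.30, limma adjusted p = 4.5e-08).

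**Figure D2:**
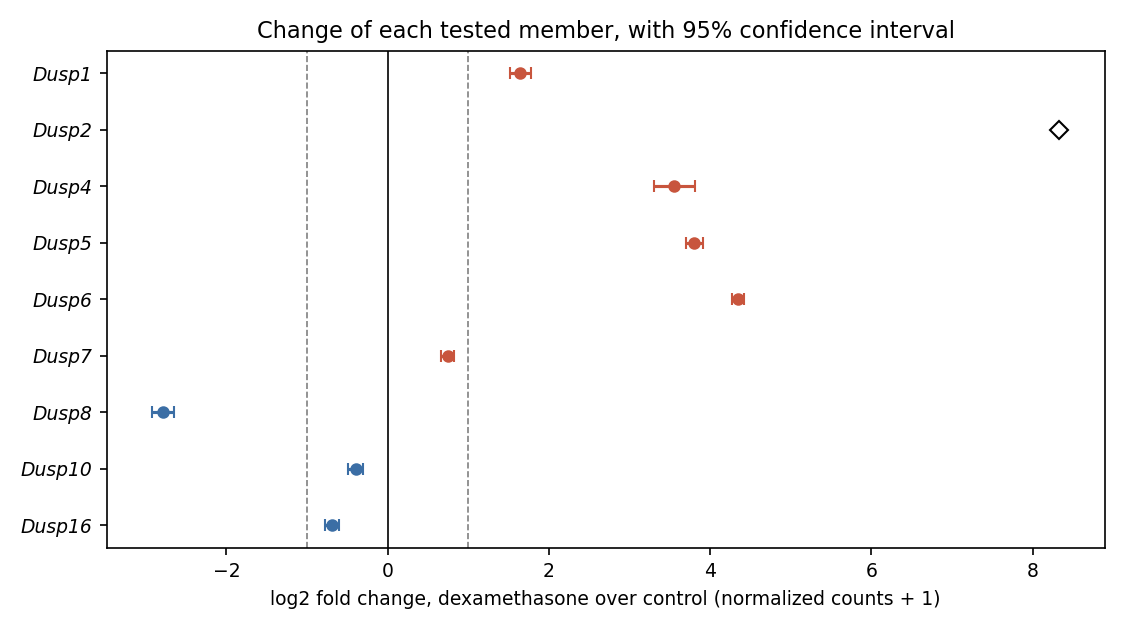
Log2 fold change (dexamethasone over control, normalized counts + 1) of the 9 members with enough reads, with 95% confidence intervals from limma and dashed lines at the call threshold of 1 in either direction. Dusp2, the open diamond, has no interval because its change chose the family, and of the others Dusp6 at 4.35 and Dusp8 at -2.79 lie farthest apart.

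Levels were compared between members only after division by exon length. In the controls the highest were Dusp10 with 920 ± 57.7 and Dusp7 with 907 ± 26.5 normalized counts per kb (SD, n = 3), whose values overlapped. Dusp16 with 490 ± 10.8, Dusp8 with 415 ± 12.4, Dusp6 with 273 ± 4.33, Dusp5 with 180 ± 7.71, Dusp1 with 145 ± 4.98 and Dusp4 with 30.1 ± 7.41 followed, each apart from its neighbour by more than the spread of the libraries. Dusp9 and Dusp2, at 1.35 ± 0.310 and 0.914 ± 0.444, were last and overlapped. With dexamethasone the order opened with Dusp6 at 5568 ± 114, then Dusp5 at 2517 ± 125, Dusp7 at 1520 ± 38.7 and Dusp10 at 698 ± 23.7. Dusp1 at 454 ± 33.4 and Dusp2 at 440 ± 11.9 overlapped, and Dusp4 at 352 ± 33.0, Dusp16 at 303 ± 15.1, Dusp8 at 60.2 ± 5.57 and Dusp9 at 1.37 ± 1.12 closed it. The summed level of the family was 3362 ± 92.7 normalized counts per kb in the controls and 11913 ± 330 with dexamethasone, and without Dusp6 it was 3089 ± 95.5 and 6346 ± 227.

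As shares of that sum within each library, which do not depend on how libraries were scaled, the family had another make-up in each group. The members that prefer JNK and p38 made up 53.9%, 54.7% and 54.3% of the family in the controls against 8.97%, 8.80% and 8.95% with dexamethasone. The cytoplasmic ERK phosphatases went from 35.1% ± 0.302 to 59.5% ± 0.646 (SD, n = 3) and the nuclear members from 10.6% ± 0.262 to 31.6% ± 0.629. Dusp6 alone went from 8.14% ± 0.321 to 46.7% ± 0.508 and Dusp5 from 5.35% ± 0.190 to 21.1% ± 0.470. The share of Dusp7 was 27.0% ± 0.207 and 12.8% ± 0.142, while its own level was higher with dexamethasone. The family sum and the nuclear share include Dusp2, whose values chose the family and which made up 0.0274% and 3.69%. The summed level of Dusp8, Dusp10 and Dusp16 itself was 1825 ± 63.7 normalized counts per kb in the controls and 1061 ± 39.7 with dexamethasone, 0.582 of the control level, so that their lower share goes with the higher levels of other members as well. The share of Dusp1 was 4.32% ± 0.261 and 3.82% ± 0.343, with overlapping libraries.

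**Figure D3:**
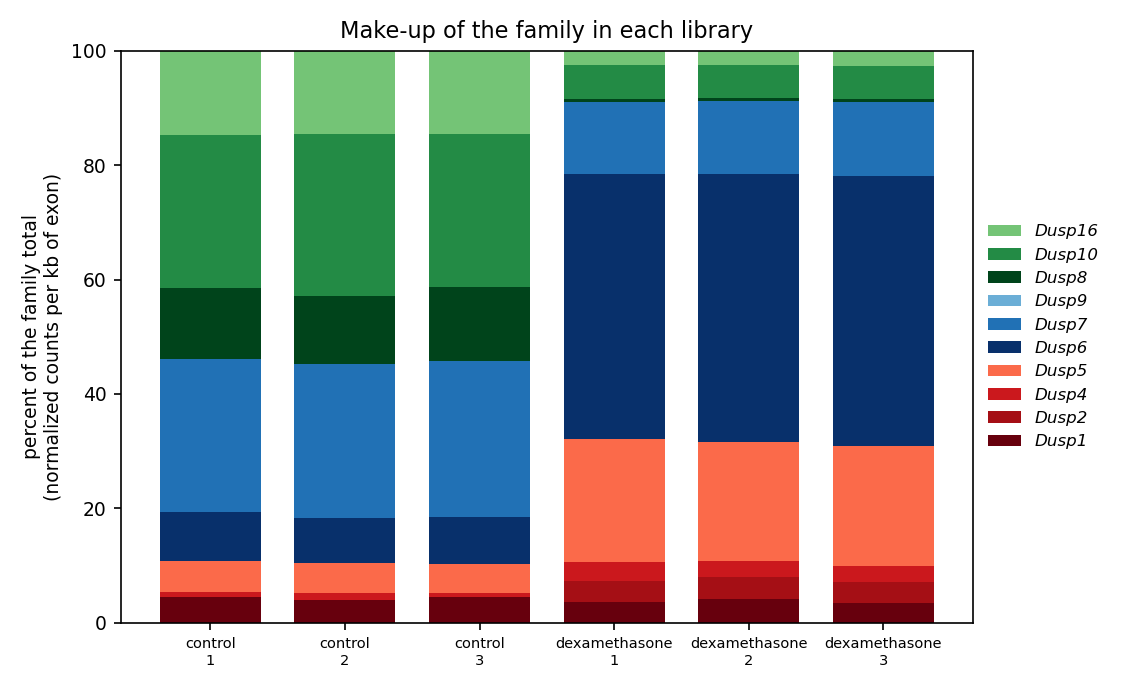
Share of each member in the family's summed normalized counts per kb of exon (percent), 1 bar per library. The green segments (Dusp8, Dusp10, Dusp16) fill 53.9% to 54.7% of the control bars and 8.80% to 8.97% of the dexamethasone bars, and Dusp6 fills 46.2% to 47.2% of the latter.

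The genes around the phosphatases were taken from lists of the pathway, 97 genes of which 87 were tested. Of these 21 were called higher and 7 lower, or 32.2%, against 22.3% of all genes. Among the MAP kinases themselves 1 of 9 tested was called. Mapk11 (p38 beta) rose 2.54-fold, while Mapk14 (p38 alpha) had a ratio of 1.56. Of the 7 MAP kinase kinases 1 was called, Map2k3, which activates p38 (3.37-fold higher), and Map2k2, which activates ERK, had a ratio of 1.27. Map2k6 and Map2k1, named after their values were seen, were lower, with ratios of 0.529 and 0.711. At a limma adjusted p under 0.05 with any fold change, 3 of the 7 were higher and 2 lower, against 72.5% of all genes in either direction. Of 17 tested Raf and MAP3 kinases 4 (23.5%) were called, all higher. Of all genes 22.3% were called in either direction and 11.7% higher. At a limma adjusted p under 0.05 with any fold change, 10 of the 17 were higher and 5 lower, against 72.5% of all genes in either direction. Map3k5 and Map3k6, stress-activated kinases also known as ASK1 and ASK2, rose 7.62-fold and 7.54-fold. Map3k7 (TAK1) and Braf had ratios of 1.24 and 0.724.

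**Figure D4:**
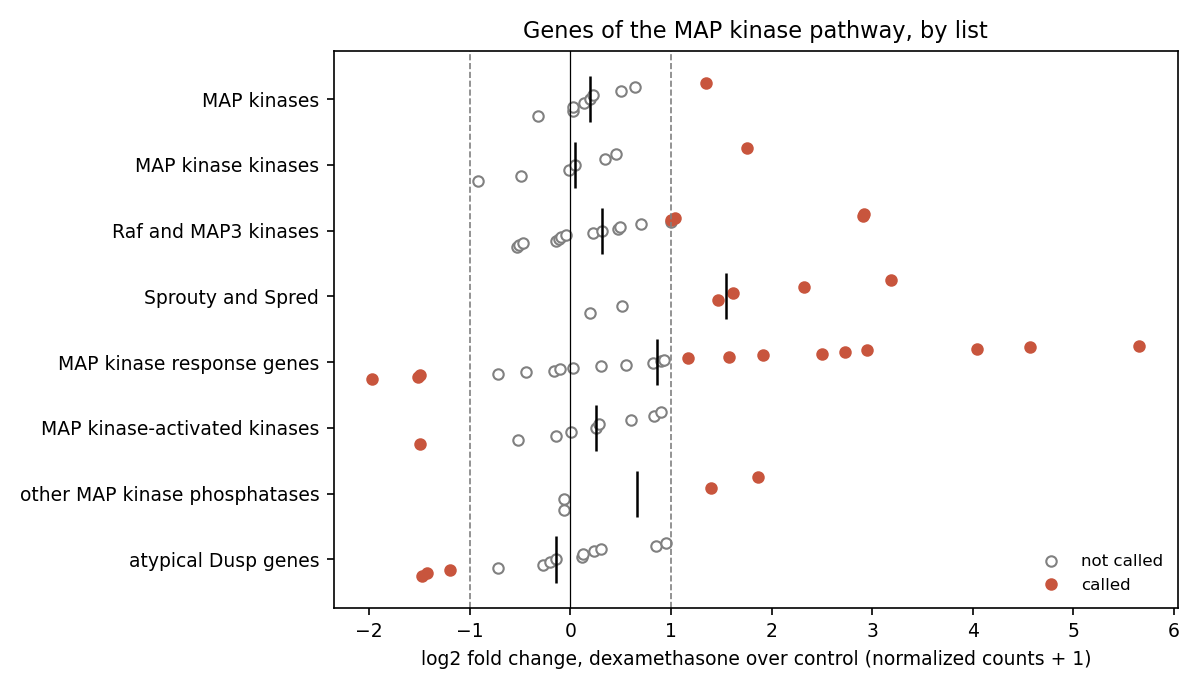
Log2 fold change (dexamethasone over control, normalized counts + 1) of the 87 tested pathway genes by list, with filled points for called genes, open points for the others, vertical bars for list medians and dashed lines at 1 in either direction. The Sprouty and Spred median lies at 1.55 and that of the MAP kinases at 0.20.

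The Sprouty and Spred genes encode inhibitors that act on Ras and Raf, upstream of ERK, and like Dusp6 are made in response to ERK. Of 6 tested, 4 were called, all higher, against 11.7% of all genes called higher. Spry4 had 27.5, 35.2 and 33.4 normalized counts in the controls against 321, 264 and 312 with dexamethasone (log2 fold change 3.18, limma adjusted p = 1.66e-15). Spry2 rose 5.03-fold, Spred2 3.07-fold and Spred1 2.78-fold, and no library of one group reached into the other. Spry1 and Spred3 had ratios of 1.16 and 1.43. The median log2 fold change of the list was 1.55.

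Of 22 immediate-early and ERK-responsive genes, all tested, 9 were called higher and 3 lower, against 11.7% and 10.6% of all genes, with a median log2 fold change of 0.86. The largest rises were in Etv4, a PEA3-type ETS factor, and Fosl1, a Fos-type subunit of AP-1. Etv4 went from 56.5 ± 11.1 to 2861 ± 105 normalized counts (SD, n = 3; log2 fold change 5.66, standard error 0.102, limma adjusted p = 2.3e-24), and Fosl1 went from 116 ± 5.94 to 2765 ± 126 (log2 fold change 4.56, limma adjusted p = 9.36e-26). The others called higher, named after their values were seen, were Etv5 (16.5-fold), Etv1 (7.71-fold), Egr3 (6.62-fold), Egr1 (5.69-fold), Egr2 (3.77-fold), Jun (2.99-fold) and Ier2 (2.26-fold). The list did not move as one. Fosl2, another Fos-type subunit, fell to 0.351 of its control level, and Jund and Atf3, also named after their values were seen, fell to 0.356 and 0.258. Fos, the classic immediate-early gene, also named after its values were seen, had 237, 208 and 240 normalized counts in the controls against 268, 308 and 273 with dexamethasone, a difference of 0.31 on the log2 scale (limma adjusted p = 0.00769). Ccnd1, a cyclin gene, had a ratio of 1.47.

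**Figure D5:**
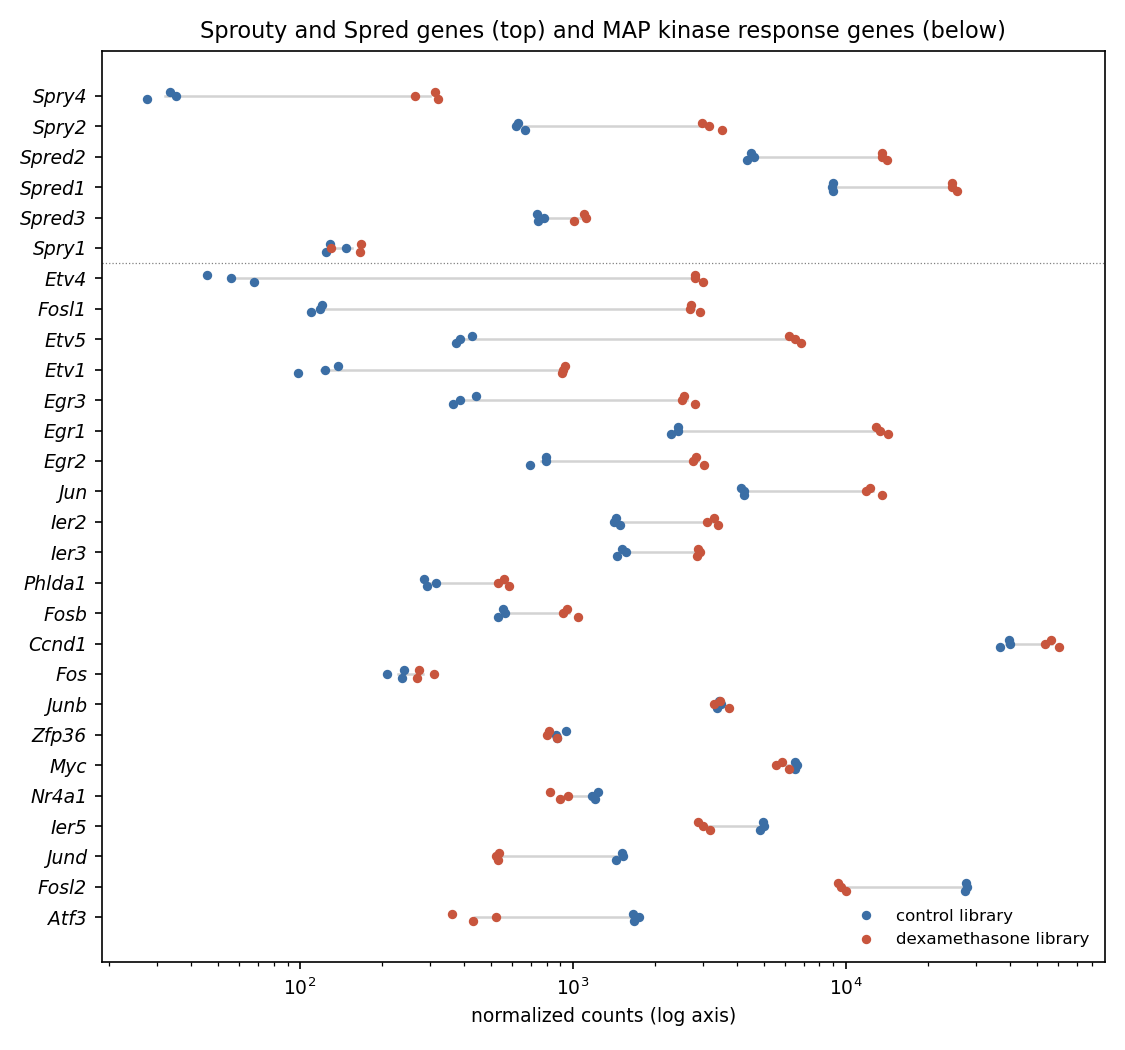
Normalized counts (log axis) of the Sprouty and Spred genes and the MAP kinase response genes in each library, ordered within each list by fold change, with grey lines joining the group means. Etv4, Fosl1 and Etv5 show the widest gaps and Atf3, Fosl2 and Jund lie to the left of their control points.

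Of the 9 tested kinases that MAP kinases activate, 1 was called against 22.3% of all genes, Rps6ka5 (MSK1), which fell to 0.355 of its control level. Rps6ka3 (RSK2) and Mapkapk2 (MK2), which carry ERK and p38 signals onward, had ratios of 1.52 and 1.22. Of the 4 tested among other phosphatases that act on MAP kinases, 2 were called against 22.3% of all genes, both higher. Ptpn7, with a control mean of 34.2 normalized counts, rose 3.74-fold, and Ppm1d (Wip1) rose 2.63-fold. Ppm1a and Ppm1b had ratios of 0.955 and 0.955. Ptpn5 and Ptprr had too few reads to be tested. The atypical Dusp genes, most of which lack the MAP kinase binding domain, had 13 tested members. Of these 3 (23.1%) were called, all lower, a share near the 22.3% of all genes. At a limma adjusted p under 0.05 with any fold change, 4 of the 13 were higher and 7 lower, against 72.5% of all genes in either direction. Dusp3 went from 2230 ± 92.0 to 806 ± 55.7 normalized counts (SD, n = 3; log2 fold change -1.47, limma adjusted p = 9.08e-18), Dusp13 went from 22.7 ± 4.96 to 7.75 ± 1.08, and Styxl1, named after its values were seen, from 63.0 ± 14.96 to 27.9 ± 11.4. Dusp11 and Styx had ratios of 0.872 and 0.909.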

How the data were processed

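RNA libraries (KAPA stranded mRNA kit) were made from 3 control and 3 dexamethasone samples. The authors aligned and counted reads with STAR 2.7.10a and divided the counts by size factors from DESeq2 1.36.0, on GRCm39 per the labels. The deposited values are this signal per gene, here called normalized counts. The annotation release and strand setting are not given in the sources used here. Every value (100%, within 0.01 of a read) was a whole multiple of 1 step per library, which gave back the reads, 72596611 to 89910728 per library, and 0 columns were left out. Same-group libraries differed by more than sampling noise (chi-square per degree of freedom 3.52 to 29.6). Ensembl identifiers were matched to symbols and merged exon lengths of GENCODE M21, an annotation of another build, for 28087 of 29616 genes. Promoters came from RefSeq (GRCm38.p6, 8 of 10 members), cut to the 250 bases before the start.

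Log2(normalized count + 1) was compared with limma 3.58.1 in R 4.3.3 (lmFit, eBayes with trend) in the 17442 genes whose mean reached 10, adjusted by Benjamini-Hochberg over all of them. Fold changes on this scale are understated for genes with few reads, and ratios in the text are of group means. With 3 against 3 libraries an exact permutation test of a single gene cannot go below p = 0.1. The procedure was tested on simulated data. The count models of DESeq2 1.42.0 and edgeR 4.0.16 were run on the reads as alternatives, beside a fit with a replicate block, fits lacking 1 library, a fit with no trend, and changes of pseudocount, filter and scaling. Members and lists were chosen with earlier results of these data known. Named were all members, of each pathway list the 2 genes of highest mean count over all libraries and the 2 called genes of largest change, the glucocorticoid targets, and the 5 genes nearest to Dusp2. Some genes that this rule names are not reported here.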

Additional observations from a re-analysis of the deposited data

How the results depend on the processing

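The 5 calls among the 8 members other than Dusp2 (4 higher, 1 lower) were found again in number under every other pseudocount, filter and scaling, without the trend, with edgeR and DESeq2, with the replicate block and without any 1 library. At an adjusted p under 0.05 with no fold requirement the numbers were 8 members (5 higher, 3 lower), 72 pathway genes (49 higher, 23 lower) in place of 28, and 12645 genes in all (6497 higher, 6148 lower) in place of 3894, by construction. At a mean of at least 100, 2170 genes were called in all (1350 higher, 820 lower), fewer being tested. Apart from that change of threshold, under which Dusp7, Dusp10 and Dusp16 were added, no member other than Dusp2 changed direction or lost or gained a call. A minimum of 10 in every library gave no value for Dusp2. The log2 fold change ranged from 4.22 to 4.36 for Dusp6, from 0.58 to 0.77 for Dusp7, from -0.85 to -0.65 for Dusp16 and from -0.55 to -0.35 for Dusp10. Rescaling to the same total shifted the median of all genes to -0.11, and the changes of the members there are relative to that shift. That of Dusp2, whose controls are at the limit of detection, moved with the pseudocount and the model from 7.03 to 8.89. Same-numbered libraries did not deviate together (correlations of same-numbered deviations -0.0999, -0.105 and -0.0199), and with the replicate block 5 members and 3897 genes were called. Without division by exon length, the shares in controls and with dexamethasone were 63.7% and 12.95% for the members that prefer JNK and p38, 28.8% and 61.1% for the cytoplasmic ERK phosphatases, and 7.45% and 25.9% for the nuclear members. Shares by coding length were not run. Depth limits Dusp9 and the control level of Dusp2.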
